A study of Anas platyrhynchos with 3 samples.

Results

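The 10 genes described here encode the enzymes, binding partners and core proteins of the hyaluronan and heparan sulfate matrix. They were the rows of the bill skin table with the symbols HAS2, HAS3, CD44, VCAN, TNFAIP6, SDC2, SDC4, GPC1, GPC3 and GPC4, and all 10 were found among 14938 genes. Messenger RNA was sequenced from bill skin of Pekin duck (Anas platyrhynchos) embryos. Tissue was taken at embryonic day 24 to 26, once the inner membrane of the shell was pierced, which the labels place 24 to 48 hours ahead of hatching. The labels name no strain, treatment or genotype beyond this, and 3 biological replicates form the only group. The study as a whole asks how lamellar cells, the cells that wrap the nerve ending in touch corpuscles of the bill, sense touch. With no second condition, genes were compared within libraries, and libraries were compared with each other by description.

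Hyaluronan is a long unsulfated sugar chain that is spun out at the plasma membrane by hyaluronan synthases, holds water and fills the space between cells. Heparan sulfate is made in the Golgi on core proteins, chiefly the transmembrane syndecans and the lipid-anchored glypicans, and its sulfated stretches bind growth factors and morphogens such as FGFs, Wnts and Hedgehog proteins. In skin, hyaluronan is abundant in the dermis and also lies between living keratinocytes, and syndecans mark keratinocytes and fibroblasts in different proportions.

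Counted reads came to 32247700 in replicate 1, 30630039 in replicate 2 and 25268141 in replicate 3. Levels are given as FPKM, reads scaled to the length of the gene and the depth of the library, so that genes of different length can be compared. Of all genes, 10605 reached 1 FPKM in every library and were tested, among them all 10 described here, and the median gene stood at 13.3, 13.1 and 13.3 FPKM. Skin identity was checked with marker lists. All 13 keratinocyte markers and all 17 fibroblast markers measured were over the minimum, with SFN at 1810 ± 131 and SPARC at 1417 ± 439 FPKM (SD, n = 3). The basal keratins KRT5 and KRT14 were not analysed here. Replicate 2 stood apart in its marker levels. Summed fibroblast markers came to 4405, 7773 and 4592 FPKM in replicates 1 to 3, and summed keratinocyte markers to 5545, 4661 and 5362. Also highest in replicate 2 were the sums of Schwann cell (519, 910.1 and 543), smooth muscle and pericyte (146, 211 and 169.8) and cartilage and bone markers (136, 249 and 105). In whole skin, more cells of a type and more RNA per cell cannot be told apart.

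Transcripts of the 10 genes spanned a wide range, from the syndecans near 100 FPKM down to HAS3 near 3. In decreasing order of mean level they were SDC2, SDC4, CD44, GPC1, GPC4, VCAN, HAS2, TNFAIP6, GPC3 and HAS3. Between libraries the order was firm at 3 of its 9 steps, where the ranges of the 3 libraries did not overlap. These were CD44 above GPC1, GPC1 above GPC4, and GPC3 above HAS3. The order also depends on the gene lengths behind the FPKM, as given below for GPC1 and GPC4. At the other 6 steps the ranges overlapped, although SDC4 was above CD44 in 3 of 3 libraries. In replicate 3 SDC4 and CD44 stood at 109.1 and 108.8 FPKM, a difference within counting error. Steps further apart could still be firm, as GPC4, VCAN and HAS2 each lay above GPC3 without overlap. Against the median gene of each library, limma's moderated test on log2(FPKM + 0.1) called 7 of the 10 higher and 1 lower, and 2 were not called. Of all 10605 genes tested, 43.7% were called higher and 43.6% lower in the same fit. All p-values rest on 3 replicates. The SE and p-values of limma use a spread for each gene that is moderated toward that of all genes tested.

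**Figure D1:**
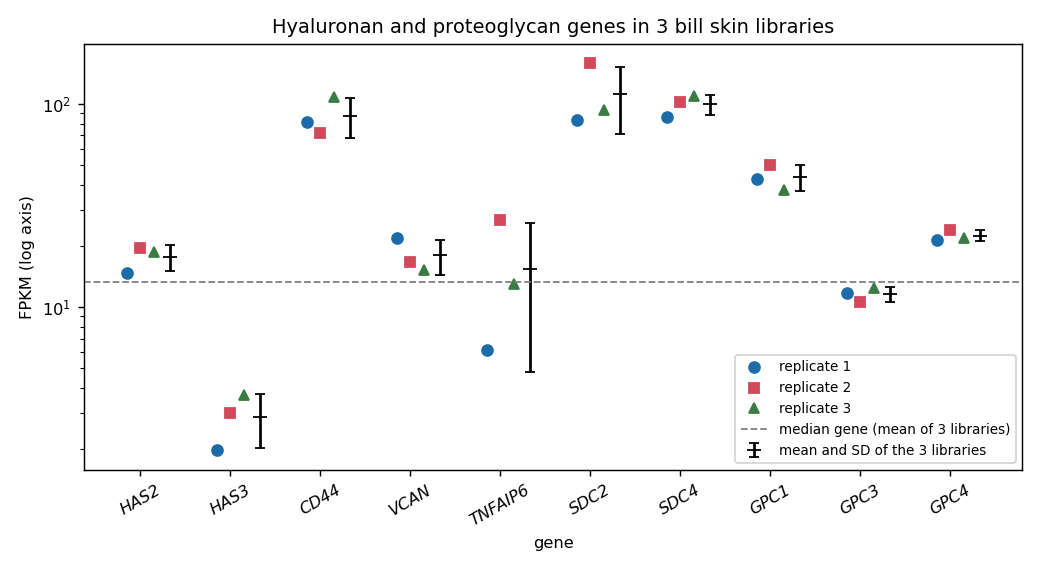
FPKM of the 10 genes (log axis) in each library, with the mean and SD of the 3 libraries beside the points and the median gene as a dashed line at about 13 FPKM. SDC2, SDC4 and CD44 lie highest, HAS3 lies lowest, and TNFAIP6 spreads most, from 6.13 to 26.9 FPKM.

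Hyaluronan synthesis was represented mainly by HAS2, the synthase known in vertebrates for large hyaluronan of mesenchyme and dermis. HAS2 was at 14.7, 19.6 and 18.7 FPKM in replicates 1, 2 and 3, a mean of 17.7 ± 2.62 (SD, n = 3). Replicate 1 was the low one, and the other libraries lay close together. HAS3, a synthase associated with epithelial cells and keratinocytes in mammals, was at 1.97, 3.00 and 3.69 FPKM, a mean of 2.89 ± 0.864. These values came from 104, 155 and 158 reads, and the 95% Poisson intervals, which cover counting error only, ran from 1.61 to 2.39, from 2.55 to 3.51 and from 3.14 to 4.31 FPKM. HAS3 was thus lowest in replicate 1, as HAS2 was, beyond counting error.

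HAS2 exceeded HAS3 in 3 of 3 libraries, 7.45-fold, 6.54-fold and 5.07-fold, with a mean log2 difference of 2.61 ± 0.27 (SD, n = 3). With 3 libraries an exact sign-flip permutation test cannot give a two-sided p below 0.25, which is the value reached here and for each of the 4 other related pairs that kept a direction. HAS2 supplied 86.1 ± 2.38% and HAS3 13.9 ± 2.38% of synthase transcripts counted per length, and HAS1 was not analysed here. Against the median gene, HAS2 was 1.32-fold higher (log2 0.40 ± 0.12 SE, limma adjusted p = 0.0164) and HAS3 was 4.6-fold lower (log2 -2.20 ± 0.17 SE, limma adjusted p = 4.17e-05). The HAS2 call was lost without replicate 3 (log2 0.38, limma adjusted p = 0.0652). Among genes over 5 FPKM, HAS2 was on the lower side of their median (log2 -0.20, limma adjusted p = 0.124).

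Genes that make the sugar precursors of hyaluronan lay on both sides of the median gene, from log2 0.83 to -1.17. Of 7 measured, 3 were called higher, 2 lower and 2 not, against 43.7% higher and 43.6% lower among all genes tested. UGP2, which makes UDP-glucose, was at 23.6 ± 2.13 FPKM, GNPNAT1, of the route to UDP-N-acetylglucosamine, at 17.4 ± 2.78, and UAP1, the last enzyme of that route, at 17.2 ± 6.63. GNPNAT1 was not called without replicate 2 (log2 0.27, limma adjusted p = 0.0672). All 7 were highest in replicate 2, where 34% of all genes tested were highest. UAP1 was at 13.2, 24.8 and 13.6 FPKM in replicates 1, 2 and 3.

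Of 9 hyaluronan breakdown genes measured, 4 were called higher than the median gene, 3 lower, and 2 were under 1 FPKM. The 4 and 3 are of 7 genes tested. Among all genes tested, 43.7% were called higher and 43.6% lower. The lysosomal glucuronidase GUSB was at 21.4 ± 3.71 FPKM, and the hyaluronidase HYAL2, which cuts long chains at the cell surface, at 20.0 ± 4.27. HYAL2 was no longer called without replicate 1 (log2 0.50, limma adjusted p = 0.057). CEMIP, a hyaluronan-depolymerising protein of fibroblasts, was lower at 2.83 ± 0.558 FPKM, and its relative CEMIP2 was at 5.08 ± 1.07. HYAL4 had no read in any library, where a count of 0 allows up to 3 reads.

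CD44, the main cell-surface hyaluronan receptor, which links the chain to the cortical actin skeleton, was the highest of the hyaluronan-binding genes described here. CD44 was at 81.4, 71.7 and 108.8 FPKM, a mean of 87.3 ± 19.2 (SD, n = 3), from 17695, 15266 and 19215 reads. Replicate 3 was high and replicate 2 low. Keratinocyte markers were also lowest in replicate 2, with median log2 deviations of 0.11, -0.20 and 0.12 in replicates 1, 2 and 3. CD44 deviated by -0.08, -0.26 and 0.34 on the same scale. Of the 13 keratinocyte markers, 6 were highest in replicate 1 and 7 in replicate 3, and their summed FPKM was highest in replicate 1. The part of cell composition in the CD44 values was not tested. CD44 was 6.46-fold above the median gene (log2 2.69 ± 0.13 SE, limma adjusted p = 5.81e-06), at the 91.9th percentile of genes tested. In the gene table of a Pekin duck assembly, the span of CD44 overlaps that of SLC1A2, which was at 1.29 ± 0.188 FPKM. Shared reads could not be told apart, because whether counting used strand is not given in the sources used here.

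Proteins that tie CD44 and syndecans to the inside of the cell were all well transcribed. The 6 measured were RDX, MSN and EZR of the ezrin-radixin-moesin family, the related NF2, and the syndecan-binding SDCBP and SDCBP2. Each was called higher than the median gene, where 43.7% of all genes were. RDX was the highest at 129 ± 7.43 FPKM, SDCBP (syntenin) stood at 110.2 ± 8.63 and MSN at 99.2 ± 9.84. These levels are of the same order as those of CD44, SDC2 and SDC4.

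VCAN encodes versican, a large chondroitin sulfate proteoglycan that binds hyaluronan and makes loose, hydrated matrix. VCAN was at 21.9, 16.8 and 15.2 FPKM, a mean of 18.0 ± 3.51 (SD, n = 3), from 7431, 5558 and 4193 reads. The Poisson intervals of the libraries did not overlap. VCAN was the only one of the 10 genes to be highest in replicate 1, where 33.1% of all genes tested were highest. VCAN is on the Z chromosome in the gene table, and of 444 Z-linked genes tested 14.0% were highest there, against 33.6% on other chromosomes. Fibroblast markers had their lowest median deviation in replicate 1 (-0.27, 0.47 and -0.21 in replicates 1, 2 and 3). VCAN deviated by 0.30, -0.08 and -0.22. Endothelial markers (0.17, -0.05 and -0.15) and skeletal muscle markers (0.38, 0.18 and -0.66) had the library order of VCAN, and their part in it was not tested. The skeletal muscle median rested on 3 markers over the minimum, of 7 measured.

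VCAN was 1.34-fold above the median gene (log2 0.42 ± 0.13 SE, limma adjusted p = 0.0191). Without replicate 1 it was not called (log2 0.29, limma adjusted p = 0.0812), and among genes over 5 FPKM it lay on the lower side (log2 -0.18, limma adjusted p = 0.202). CD44 exceeded VCAN 4.82-fold on the log2 average (VCAN minus CD44, -2.27 ± 0.50 SD, n = 3), in 3 of 3 libraries, and the ratio of VCAN to CD44 was 0.27, 0.234 and 0.14. HAPLN1, a link protein that locks versican onto hyaluronan, is a neighbour of VCAN on the Z chromosome in the gene table. HAPLN1 was at 17.2, 13.8 and 12.6 FPKM, the same order of libraries as VCAN. XRCC4, the neighbour on the other side, was at 3.45, 5.35 and 3.52 FPKM, highest in replicate 2. Over 444 Z-linked genes tested the median deviation was -0.11, 0.18 and -0.09, highest in replicate 2. The part of the Z chromosome in the values of these neighbours was not tested.

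Chondroitin sulfate enzymes, which build the chains of versican, had a median of 5.04 FPKM as a list. Of 14 measured, 2 were called higher than the median gene, 9 lower, 1 was not called and 2 missed 1 FPKM in a single library. The 2 and 9 are of 12 genes tested, against 43.7% called higher and 43.6% lower among all genes tested. The polymerising factor CHPF2 was at 23.4 ± 2.05 FPKM, the dermatan sulfotransferase CHST14 at 23.0 ± 2.61 and the chain-initiating CSGALNACT2 at 14.8 ± 0.344. Of 5 proteases known to cut versican, ADAMTS1 at 24.5 ± 1.15 and ADAMTS9 at 21.8 ± 2.05 FPKM were higher than the median gene, and ADAMTS5 at 5.68 ± 0.396, ADAMTS15 and ADAMTS20 were lower.

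TNFAIP6 encodes TSG-6, a secreted protein induced by inflammatory signals that moves heavy chains of inter-alpha-inhibitor onto hyaluronan. TNFAIP6 was at 6.13, 26.9 and 13.0 FPKM, from 361, 1549 and 622 reads, a mean of 15.3 ± 10.6 (SD, n = 3). All 3 libraries differed, replicate 2 being 4.38-fold above replicate 1, and the Poisson intervals were far apart. Its SD of 1.06 on the log2 scale was above that of 99.7% of genes tested. Without replicate 2 the mean was 9.57 FPKM. TNFAIP6 was not called against the median gene (log2 -0.04 ± 0.37 SE, limma adjusted p = 0.931).

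PTX3, a pentraxin that binds TSG-6 in hyaluronan-rich matrix, had the same order of libraries, at 13.3, 43.3 and 18.5 FPKM. Its mean of 25.1 FPKM was the highest of the other hyaluronan-binding genes through replicate 2, without which it was 15.9, below HMMR at 20.0. The fibroblast list was also highest in replicate 2, with 16 of its 17 markers, and the SD of TNFAIP6 was 0.71 after subtraction of the fibroblast median deviation, against 1.06 before. Leukocyte markers summed to 19.2, 30.8 and 23.0 FPKM, with CD8A at 0 reads in all libraries, and their part in the TNFAIP6 values was not tested. Of the related heavy chain genes measured, ITIH5 was at 7.95 ± 0.681 FPKM, and ITIH2 had at most 0.0248.

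Other hyaluronan-binding genes were low, apart from PTX3, HAPLN1 and HMMR. HMMR, a hyaluronan receptor that is also a spindle protein of dividing cells, was at 20.8 ± 3.12 FPKM and was the single gene of 15 measured that was called higher than the median gene. Among all genes tested, 43.7% were called higher and 43.6% lower. In the list 4 genes were lower and 2 were not called, so the 1 higher and 4 lower are of 7 genes tested. The other 8 missed 1 FPKM in at least 1 library. Those 8 included the lymphatic receptor LYVE1 at 1.15 ± 0.230, the cartilage proteoglycan ACAN at 1.52 ± 0.809, and the neural proteoglycans BCAN and NCAN at 0.145 and 0.0534 FPKM.

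**Figure D2:**
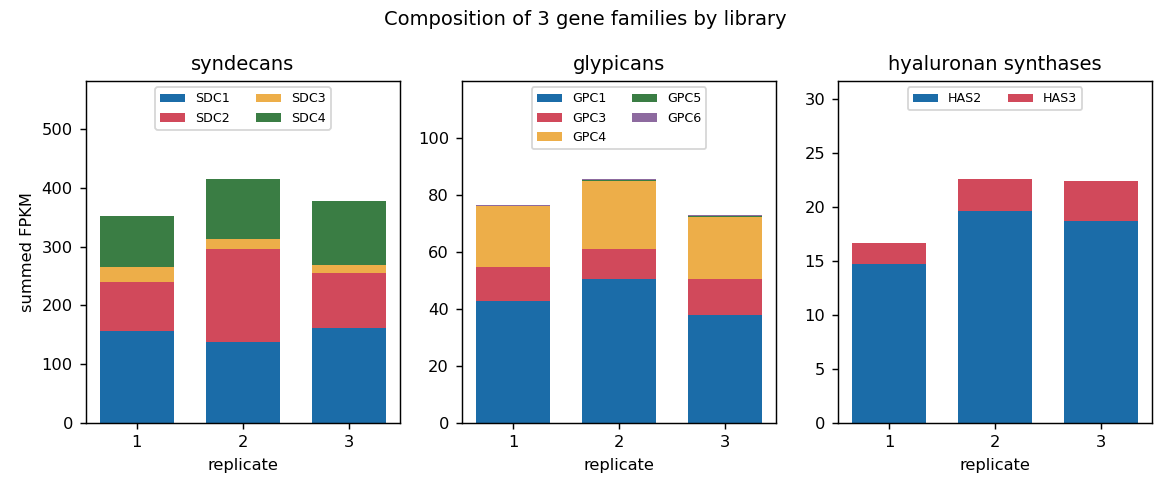
Summed FPKM of the measured syndecans, glypicans and hyaluronan synthases in each library, stacked by gene, each panel with an axis from 0. The SDC2 share of syndecans is larger in replicate 2 (38.1%) than in replicates 1 and 3 (23.9 and 24.7%). Glypican shares keep the same order in every library, with GPC1 at 56.1, 58.8 and 52.0% and GPC3 at 15.4, 12.3 and 17.1%.

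Summed over the family, transcripts of the syndecans exceeded those of the other surface heparan sulfate core proteins measured, with SDC3 making up 5.02% of the syndecans. SDC2, a syndecan of fibroblasts and other mesenchymal cells in mammals, was at 83.8, 158.5 and 93.4 FPKM, a mean of 111.9 ± 40.7 (SD, n = 3). Replicate 2 was 1.89-fold above replicate 1, and the other libraries were close to each other. SDC4, a widely expressed syndecan of focal adhesions, was at 86.7, 102.6 and 109.1 FPKM, a mean of 99.5 ± 11.5. Its libraries lay within 1.26-fold of each other, with replicate 1 the lowest.

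Against the median gene, SDC2 was 8.07-fold higher (log2 3.01 ± 0.19 SE, limma adjusted p = 1.63e-05) and SDC4 7.43-fold higher (log2 2.89 ± 0.10 SE, limma adjusted p = 2.07e-06). These levels lay at the 94.0th and 93.0th percentile of genes tested. SDC4 was above SDC2 in 2 of 3 libraries and below it in replicate 2, with log2 differences of 0.05, -0.63 and 0.22, a mean of -0.12 ± 0.45 (SD, n = 3, exact sign-flip permutation p = 1). Without replicate 2 the mean difference was 0.14. SDC1, the syndecan of keratinocytes in mammals, was at 156, 137 and 161 FPKM, above both in replicates 1 and 3 but below SDC2 in replicate 2. With a mean of 151 ± 12.6 FPKM it made up 40.0 ± 6.16% of the family, against 28.9 ± 8.02% for SDC2, 26.1 ± 2.40% for SDC4 and 5.02 ± 1.69% for SDC3.

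The library pattern of SDC2 lay close to that of the fibroblast markers. SDC2 deviated from its log2 mean by -0.36, 0.56 and -0.20 in replicates 1, 2 and 3, and the fibroblast list by -0.27, 0.47 and -0.21. Smooth muscle and pericyte markers (-0.25, 0.29 and -0.03) and cartilage and bone markers (-0.01, 0.34 and -0.43) were highest in replicate 2 as well. The SD of SDC2 was 0.49, and 0.09 once the fibroblast median was subtracted in each library, the lowest value of the 10 genes against that list. DCN, a dermal proteoglycan among those markers, was at 673, 1330.4 and 817 FPKM. Whether SDC2 transcripts came from the same cells was not tested.

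Glypicans were lower than syndecans, with a summed level of 78.3 ± 6.59 FPKM against 382 ± 32.3 (SD, n = 3). GPC1, the glypican widely found in skin, nerve and growing cells, was at 42.8, 50.3 and 37.9 FPKM, a mean of 43.7 ± 6.26. Replicate 2 was the highest and replicate 3 the lowest. GPC4, which carries heparan sulfate for FGF and Wnt signals in development, was at 21.4, 24.0 and 22.0 FPKM, a mean of 22.5 ± 1.40. Among the 10 genes GPC4 varied least between libraries, with a coefficient of variation of 6.24% where counting alone gives 1.35%. GPC3, an inhibitor of Hedgehog signals and of growth in mammals, was at 11.7, 10.6 and 12.5 FPKM, a mean of 11.6 ± 0.963.

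GPC1 exceeded GPC4 1.93-fold and GPC3 3.73-fold, and GPC4 exceeded GPC3 1.93-fold, each in 3 of 3 libraries. The log2 differences were 0.95 ± 0.20 for GPC4 minus GPC3, 1.90 ± 0.32 for GPC1 minus GPC3 and -0.95 ± 0.15 for GPC4 minus GPC1 (SD, n = 3). By FPKM the family was thus ordered the same way in every library. GPC1 made up 55.6 ± 3.42%, GPC4 28.7 ± 1.22% and GPC3 14.9 ± 2.42% of glypican transcripts counted per length. GPC5 and GPC6 made up 0.148 and 0.549%, and GPC2 was not analysed here. In the gene table, the span of GPC1 overlaps those of the long noncoding RNA genes LOC106015356 and LOC140003183. As for CD44, shared reads could not be told apart. The deposited FPKM imply lengths of 1916 bases for GPC1 and 8308 for GPC4, from an annotation that is not named. Before division by length, GPC4 had more reads than GPC1 in every library (5597, 6168 and 4677 against 2588, 2979 and 1861).

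Against the median gene, GPC1 was 3.26-fold higher (log2 1.71 ± 0.11 SE, limma adjusted p = 1.99e-05) and GPC4 1.69-fold higher (log2 0.76 ± 0.09 SE, limma adjusted p = 3.47e-04). GPC3 was not called (log2 -0.19 ± 0.09 SE, limma adjusted p = 0.0958). The place of these genes depends on which genes set the median. With no minimum GPC3 was higher (log2 0.75, limma adjusted p = 0.0015), and among genes over 5 FPKM it was lower (log2 -0.79, limma adjusted p = 1.51e-04) and GPC4 was not called (log2 0.16, limma adjusted p = 0.127).

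GPC3 and GPC4 are neighbours in the gene table, followed by HS6ST2, a heparan sulfate 6-O-sulfotransferase. The neighbours did not share an order of libraries: GPC4 was highest and GPC3 lowest in replicate 2. HS6ST2, named here for its position after its values were seen, was at 11.5, 13.0 and 9.70 FPKM, highest in replicate 2 as GPC4 was.

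**Figure D3:**
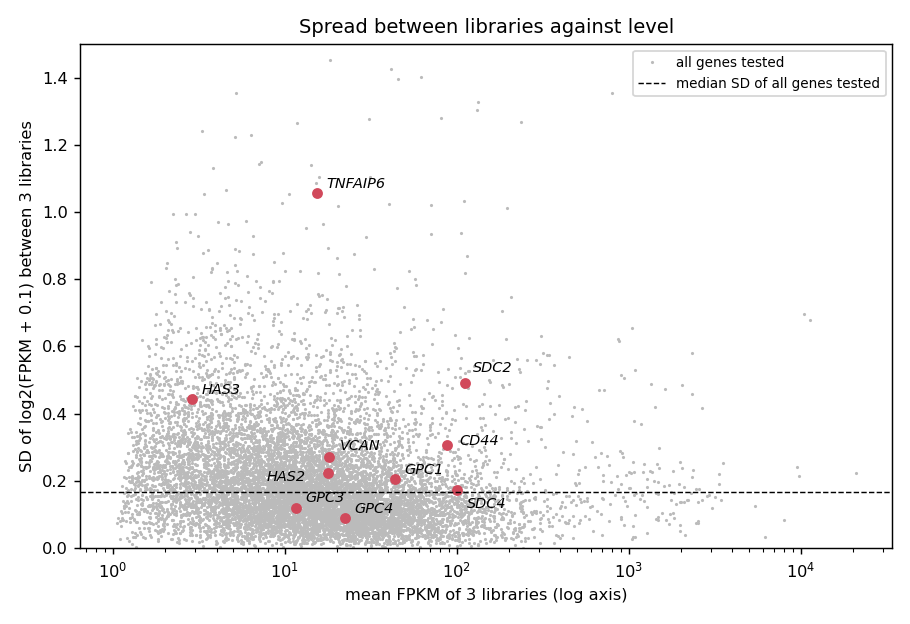
SD of log2(FPKM + 0.1) between the 3 libraries against mean FPKM (log axis) for all genes tested (grey, 6 genes lie beyond the axis limit of 1.5) and the 10 genes (red). TNFAIP6, SDC2 and HAS3 lie well above the dashed median SD of 0.168, and GPC3 and GPC4 below it.

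The 10 genes varied between libraries to very different degrees. Their SD on the log2 scale ran from 0.09 for GPC4 to 1.06 for TNFAIP6, and 8 of 10 lay above the median SD of all genes tested, which 50% of genes exceed. In 4 genes, TNFAIP6, SDC2, HAS3 and CD44, the highest library was at least 1.5 times the lowest, as in 19.4% of all genes tested. Each gene's coefficient of variation was larger than counting error alone gives, with HAS3 at 29.9% against 8.48% and GPC3 at 8.30% against 3.14%. The genes were highest in replicate 1 in 1 case, replicate 2 in 5 and replicate 3 in 4, against 33.1, 34 and 32.9% of all genes tested. They were lowest in replicate 1 in 6 cases, replicate 2 in 2 and replicate 3 in 2, against 32.3, 36.6 and 31% of all genes tested.

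**Figure D4:**
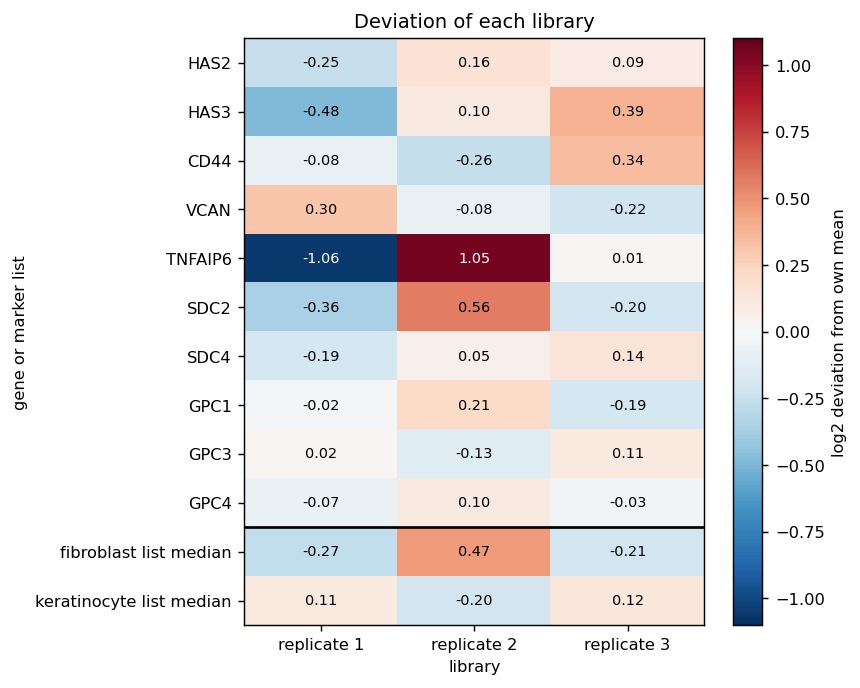
Deviation of each library from the gene's own mean of log2(FPKM + 0.1) for the 10 genes and, under the line, the median deviation of the fibroblast and keratinocyte marker lists. SDC2 has the signs and nearly the sizes of the fibroblast list, and GPC3 has the signs of the keratinocyte list.

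Placed beside the marker lists, the genes split without a shared pattern. SDC2, TNFAIP6, GPC1 and GPC4 were highest in replicate 2 with the fibroblast markers, as HAS2 also was. Subtraction of the fibroblast median lowered the SD of SDC2 and TNFAIP6 only. It raised that of GPC1 from 0.20 to 0.25, of GPC4 from 0.09 to 0.32 and of HAS2 from 0.22 to 0.31. GPC3 deviated by 0.02, -0.13 and 0.11, with the signs of the keratinocyte list (0.11, -0.20 and 0.12). Its SD was 0.12 before and 0.08 after subtraction of the keratinocyte median. The same subtraction lowered the SD of CD44 from 0.31 to 0.21 and raised that of the other genes. HAS3 and SDC4 had the order replicate 1, 2, 3 from low to high, which neither of these lists had. The median deviation of the leukocyte list had it (-0.27, 0.11 and 0.17), but rested on 4 markers over the minimum. Of these, 2 were highest in replicate 2 and 2 in replicate 3. The summed leukocyte markers were highest in replicate 2 (19.2, 30.8 and 23.0 FPKM). With 3 libraries a like pattern of this kind is a description and carries no p.

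Other core proteins that carry heparan sulfate were also transcribed. Of 8 measured, 4 were called higher than the median gene, none lower, 2 were not called and 2 were under 1 FPKM. The 4 are of 6 genes tested. Among all genes tested, 43.7% were called higher and 43.6% lower. SDC1 led, followed by the basement membrane collagen COL18A1 at 42.1 ± 3.41 and the TGF-beta co-receptor TGFBR3 at 29.2 ± 1.58 FPKM. Perlecan (HSPG2) was at 23.9, 13.9 and 15.9 FPKM, with replicate 1 high, and was not called.

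Enzymes that polymerise the heparan sulfate chain belong to the EXT family. All 5 were over the minimum, with 4 called higher than the median gene and 1, EXTL1 at 8.09 ± 2.06 FPKM, lower. These counts stand against 43.7% called higher and 43.6% lower among all genes tested. The highest were EXT1 at 36.5 ± 2.63, EXT2 at 23.7 ± 3.56 and EXTL3 at 17.1 ± 1.56 FPKM. EXTL3 was not called without replicate 1 (log2 0.31, limma adjusted p = 0.0614). Of 6 linker enzymes, which make the sugar bridge shared with chondroitin sulfate, 1 was higher, 2 lower and 3 not called. Among all genes tested, 43.7% were called higher and 43.6% lower. PXYLP1, which removes a phosphate from the linker xylose, was at 29.1 ± 6.44 FPKM, B4GALT7 at 16.1 ± 2.22 and FAM20B, the xylose kinase, at 14.98 ± 1.446.

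Of 13 modification enzymes measured, 1 was called higher, 3 lower, 4 were not called and 5 missed 1 FPKM in at least 1 library. The 1 and 3 are of 8 genes tested. HS2ST1, the 2-O-sulfotransferase, was at 23.7 ± 1.74 FPKM, the epimerase GLCE at 13.7 ± 2.78 and the 6-O-sulfotransferase HS6ST1 at 13.1 ± 0.582. Of 5 remodelling and release genes none was called higher and 4 were lower. Among all genes tested, 43.7% were called higher and 43.6% lower. HPSE2, a relative of heparanase, was at 15.1 ± 2.76 FPKM, heparanase (HPSE) at 8.58 ± 4.43 and NOTUM, a lipase that acts on Wnt proteins and was described as releasing glypicans, at 6.12 ± 0.136. HPSE was at 6.52, 5.55 and 13.7 FPKM, highest in replicate 3, and it was not called without replicate 1 (log2 -0.57, limma adjusted p = 0.155) or 2 (log2 -0.47, limma adjusted p = 0.11).

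Of 7 sulfate and nucleotide sugar supply genes, 2 were called higher, 3 lower, 1 was not called and 1, SLC26A2, missed 1 FPKM in replicate 3 alone. The 2 and 3 are of 6 genes tested. PAPSS1, which makes the sulfate donor, was at 30.6 ± 3.43, the nucleotide sugar carrier SLC35D1 at 23.1 ± 3.73 and the Golgi phosphatase BPNT2, listed under its older symbol IMPAD1, at 13.4 ± 1.17 FPKM. Over all 12 pathway lists, 30 of 100 measured genes were called higher, 34 lower, 16 were not called and 20 missed the minimum in at least 1 library. The 30 and 34 are of 80 genes tested, against 43.7% called higher and 43.6% lower among all genes tested. The 10 genes had a median level of 20.2 FPKM.

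**Figure D5:**
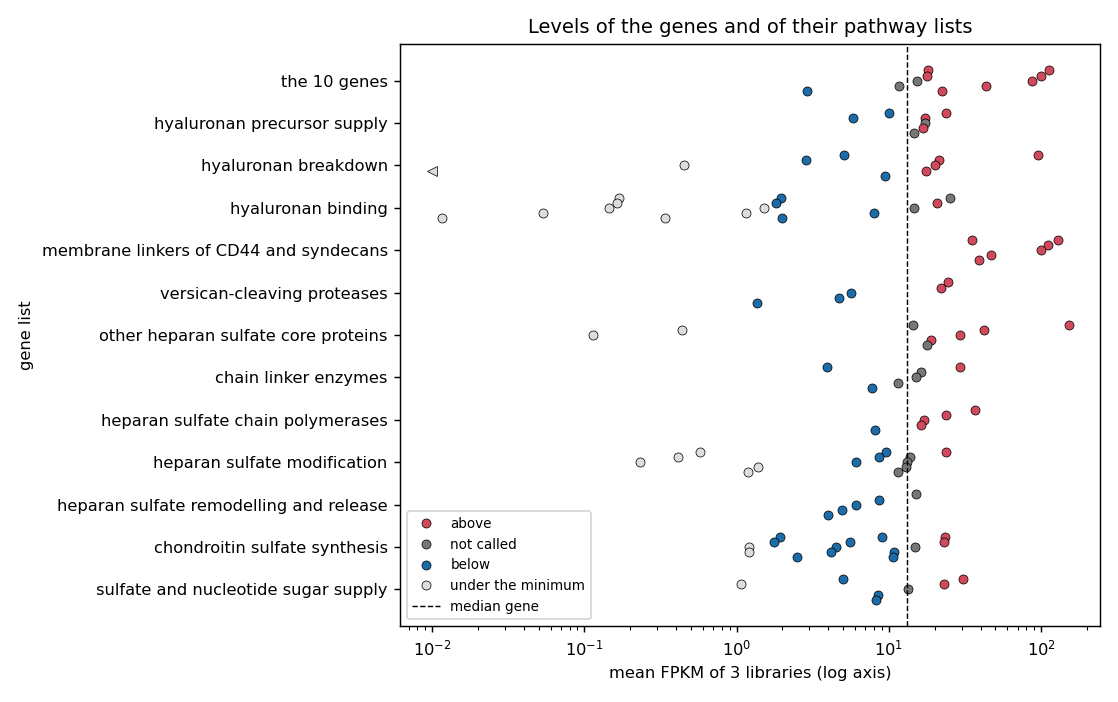
Mean FPKM of 3 libraries (log axis) for the 10 genes and the members of 12 pathway lists, coloured by limma's call against the median gene (dashed). All 6 linkers of CD44 and syndecans lie above the median gene, and 9 of the 12 chondroitin sulfate genes tested were called below it. Of all genes tested, 43.7% were called above and 43.6% below. The triangle at the left edge stands for HYAL4, which had no reads.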

How the data were processed

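Total RNA from bill skin was extracted with TRIzol and poly(A)-selected, and stranded libraries were made, per the labels' protocols, with a KAPA mRNA Hyper Prep kit. The deposited table gives raw counts per gene and library, per the file headers. It also holds the authors' deposited FPKM for the same genes. Tools listed in the submitters' processing notes, without roles, are STAR 2.5.4b, Trimmomatic 0.36, CASAVA 1.8.2, Subread 1.6.2 with featureCounts, and edgeR 3.22.3. Neither genome build, annotation nor strand setting is named there, so coordinates are left out.

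Dividing each count by its FPKM returned a whole gene length, within 0.01 bases, in 100% of 14343 genes when TMM factors (0.978, 1.01 and 1.01) were applied, and in 0.481% when they were not. The deposited FPKM therefore carry TMM scaling. RefSeq's table of Pekin duck genes, whose assembly may differ from the authors', served for names, chromosomes and neighbours; 730 of 3347 unnamed identifiers took a symbol from it.

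Each library's log2(FPKM + 0.1) was set against its median gene, using the genes that reached 1 FPKM in every library. The differences were tested with limma 3.58.1 in R 4.3.3, two-sided, with Benjamini-Hochberg adjustment over all genes at 0.05. Folds of low genes are understated on this scale. For 6 related pairs an exact sign-flip permutation test was used. As an alternative, edgeR 4.0.16 tested the counts with quasi-likelihood and offsets for length and median gene, with the F test written out from its fitted deviances. Protein sequences were not analysed here. The fits were tested on simulated data. Members and gene lists were chosen with earlier results of these data known. Named are all 10 genes, the 3 highest of each pathway list and examples from marker lists; others, such as HPSE, HSPG2, CEMIP, ITIH5 and HYAL4, were named after their values were seen. A result this rule names is not reported here. TMEM2 was read as CEMIP2. Figures used Python 3.11.15 and matplotlib 3.10.9.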

Additional observations from a re-analysis of the deposited data

How the results depend on the processing

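SDC2, SDC4, CD44 and GPC1 stayed called above the median gene, and HAS3 below it, under the other pseudocounts, minimums, tests, scaling and left-out replicates tried, except that HAS3 was not tested over 5 FPKM. The minimum moved most other places, because it sets which gene is the median. At a minimum of 5 FPKM 4 of the 10 genes were called higher, not 7, and the 1 called lower was GPC3. HAS2 then lay at log2 -0.20 and VCAN at -0.18. Pathway genes called higher were 30 in the fit as reported, 54 with no minimum and 15 at 5 FPKM. Signs were followed for the 10 genes and, of the pathway lists, only for the genes named as the highest of each list. Other pathway genes near the median may turn as well. Among the pathway genes followed, the sign turned at 5 FPKM for B4GALT7 (-0.33), FAM20B (-0.43), CSGALNACT2 (-0.44), EXTL3 (-0.24) and GLCE (-0.57). It also turned there for HPSE2 (-0.43), HAPLN1 (-0.48), HYAL2 (-0.036), GNPNAT1 (-0.22), UAP1 (-0.29) and BPNT2 (-0.58). With no minimum the sign turned, among all genes followed, for TNFAIP6 (0.91), GPC3 (0.75), HS6ST1 (0.93) and HPSE (0.21). At 0.1 FPKM it turned for TNFAIP6 (0.36), GPC3 (0.20) and HS6ST1 (0.38). TNFAIP6 was also on the higher side in edgeR's test (0.22, adjusted p = 0.546) and ran from -0.55 to 0.52 over left-out replicates, and was called in none of its alternatives. Among genes followed, leaving out a replicate also gave both signs for GLCE (-0.099 to 0.17), HS6ST1 (-0.024 to 0.027) and BPNT2 (-0.029 to 0.072). The pair SDC4 minus SDC2 likewise took both signs (-0.29 to 0.14), and the cause was not tested. The range over left-out replicates was 6 to 7 genes called higher and 0.186 to 0.239 for the median SD of the 10 genes. No paired comparison of conditions was possible because there is 1 group. Depth limits HAS3 most, with 104 to 158 reads.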

Other observations

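Some genes of the heparan sulfate and hyaluronan pathways were high in a single library, and were named after their values were seen. Heparanase (HPSE), which cuts heparan sulfate chains, was at 6.52, 5.55 and 13.7 FPKM from 521, 434 and 887 reads in replicates 1, 2 and 3. NDST4, an N-deacetylase and N-sulfotransferase, was at 2.37, 0.944 and 0.862 FPKM, and the 3-O-sulfotransferase HS3ST4 at 1.73, 0.894 and 0.956, each highest in replicate 1. The dermatan sulfate enzymes DSE and UST were highest in replicate 2, at 3.43, 6.28 and 3.84 FPKM and at 3.19, 6.58 and 2.81 FPKM. The fibroblast markers were highest there too, and whether these values share a source with them was not tested.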
